A study of Homo sapiens with 8 samples.

Results

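The islands described here are narrow stretches of trimethylated lysine 27 of histone H3 (H3K27me3) that were called in the lymphoma line SUDHL6, away from the ends of the chromosomes, at places where the line HT had no island of H3K27me3 or of trimethylated lysine 4 of histone H3 (H3K4me3). They numbered 5116 of the 13159 H3K27me3 islands of SUDHL6 and covered 15.4 Mb, or 30.1% of the length of that list. Members were chosen by measured values: a width under 10000 bp and an autosome, no base shared with an HT H3K27me3 or HT H3K4me3 island, and a midpoint more than 10 Mb from position 0 and from the largest island end on that chromosome. Of the 13117 autosomal islands, 12510 were narrow enough, 7668 of these lay inside the chromosomes, 5253 of these met no HT H3K27me3, and 5116 of these met no HT H3K4me3. Width, position and the absence of both HT marks are therefore properties of the selection and not results.

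HT and SUDHL6 are established lines of human diffuse large B cell lymphoma, grown in the same medium and left untreated. ChIP-seq was done for H3K27me3, for its methyltransferase EZH2 and for H3K4me3, each antibody giving 1 library per line, and each library 1 list of islands on hg19. No genotype is given in the labels, and SUDHL6 is known from other work to carry a heterozygous substitution in the catalytic domain of EZH2. With no replicate library, no test between the lines was made. An island missing from the HT list may still carry some mark: read depth is not known, nor is how often another HT library would lack the same islands.

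H3K27me3 is laid down by Polycomb repressive complex 2, whose catalytic subunit is EZH2, and it marks chromatin in which genes are kept silent. It can cover long domains around silenced developmental genes, or occur as short, weaker patches at a distance from the sites where the complex is held. H3K4me3 marks the promoters of active genes, and at some silent promoters both marks are found together. In germinal centre B cells and the lymphomas that derive from them, EZH2 holds genes of later differentiation in check.

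The SUDHL6-only islands were short and of ordinary signal for their list. Their median width was 2550 bp, with a middle range from 1650 to 3900 bp and extremes of 150 and 9900 bp. Among the 50% of SUDHL6 H3K27me3 islands with the highest scores, the median width of members was 4350 bp. The score that the authors gave to each island, divided by its width, had a median of 19.8 per kb (middle range 17.5 to 22.7), against 20.2 over the whole list. What the score counts is not known, so it was compared only within 1 list. Narrow SUDHL6 islands inside the chromosomes that did overlap HT H3K27me3 (2415 islands) had the same median of 19.8 per kb and were wider, with a median of 3300 bp. A wider island shares a base with another list more easily, so this difference in width is tied to the selection. Islands of the same selection within 10 Mb of a chromosome end (3833 islands) had medians of 20.7 per kb and 3000 bp.

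The score per kb also differed with width. Its median was 28 for the 335 SUDHL6-only islands under 1 kb, 20 for the 1542 islands of 1 to 2 kb, 18.8 for the 2502 of 2 to 5 kb and 19.8 for the 737 of 5 to 10 kb. The densest members were among the shortest. The highest score per kb, 80.0, belonged to an island of 150 bp on chromosome 6 from 53559901 to 53560050. Its score was 12, the lowest in the SUDHL6 H3K27me3 list. With no score below 12, the shortest islands could not have a low score per kb. High values there do not show denser mark. Under 1 kb the median was also 28 over the whole list. Next came an island of 0.45 kb on chromosome 3 from 14392651 to 14393100 with 57.8 per kb, and 1 of 1.20 kb on chromosome 1 from 160163551 to 160164750 with 57.5 per kb.

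By total score the leading members lay mostly on chromosome 6. The highest score was 345, at an island of 9.75 kb on chromosome 6 from 34511101 to 34520850, whose nearest HT H3K27me3 island was 367.5 kb away. The second was 306, on the same chromosome from 44039251 to 44047500 (8.25 kb), with an HT island at 5.10 kb. Neither overlapped EZH2 of either line, which was rare over all members (4.30% for SUDHL6 and 0.743% for HT). Of the 20 members with the highest scores, 11 lay on chromosome 6, which held 5.36% of all members. The median score per kb of the 274 members on chromosome 6 was 22.6 (middle range 19.7 to 26.3) and their median width was 3600 bp, the highest of the 22 autosomes for both. All SUDHL6 H3K27me3 islands of that chromosome had a median of 23.1 per kb and its SUDHL6 EZH2 islands 16.3 per kb, again the highest of the autosomes. The SUDHL6 H3K4me3 islands of chromosome 6, at 31.0 per kb, lay inside the range of the other autosomes (23.3 to 39.3 per kb). By length, however, both marks covered more in SUDHL6 than in HT between 10 and 60 Mb of chromosome 6, a segment singled out after its values were seen, which held 242 of the 274 members. H3K27me3 covered 3430.05 kb there against 1312.8 kb in HT, and H3K4me3 1503.6 kb against 640.95 kb. Over the whole lists, H3K27me3 covered 51.3 Mb in SUDHL6 and 54.4 Mb in HT, and H3K4me3 33.0 and 25.5 Mb. Copy number was not measured.

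The 5 widest members were all 9.90 kb wide and met neither EZH2 nor SUDHL6 H3K4me3, like 93.96% of all members. They lay on chromosome 19 from 13090801 to 13100700 (score 260), on chromosome 6 from 29777701 to 29787600 (209) and from 40156801 to 40166700 (193), on chromosome 15 from 42435601 to 42445500 (182), and on chromosome 12 from 120796051 to 120805950 (178). Beyond the width limit, 120 islands of any greater width met the other conditions, the narrowest of them 10050 bp wide, on chromosome 9 from 130631401 to 130641450, with a score of 209. At the limit of distance from the ends, the nearest members had midpoints 10.01 Mb from an end (chromosomes 5 and 4) and the nearest islands left out lay at 9.99 Mb (chromosome 19) and 9.98 Mb (chromosome 9).

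EZH2 was called over few of these islands. SUDHL6 EZH2 overlapped 220 of the 5116 SUDHL6-only islands, or 4.30% (exact 95% interval 3.76 to 4.89%, counting error only), whereas it overlapped 9.45% of all SUDHL6 H3K27me3 islands. The share was 7.46% (6.65 to 8.34%) for the same selection near chromosome ends and 12.9% (11.6 to 14.3%) for narrow interior islands that overlapped HT H3K27me3. The contrasts with the whole list and with islands shared with HT are tied to the selection, because 44.4% of the SUDHL6 EZH2 list overlapped HT H3K27me3. The whole list also holds islands wider than the limit, and its share went up with width, from 3.69% under 1 kb to 15.0% at 5 to 10 kb. All intervals come from 1 library, and islands beside each other are not independent. With islands within 5 kb joined, the shares inside the chromosomes and near the ends were 2.96% and 3.02%, nearly equal. The share for islands shared with HT was 10.9%. Joining also changed the sets, from 5116 to 3485 islands inside the chromosomes and from 3833 to 1986 near the ends. Islands merged, and merged ones could pass the width limit or meet HT islands. The loss of the difference is therefore not a correction for neighbouring islands alone. In each of the other settings tried, the SUDHL6-only islands inside the chromosomes had the lowest share of the 3 sets.

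**Figure D1:**
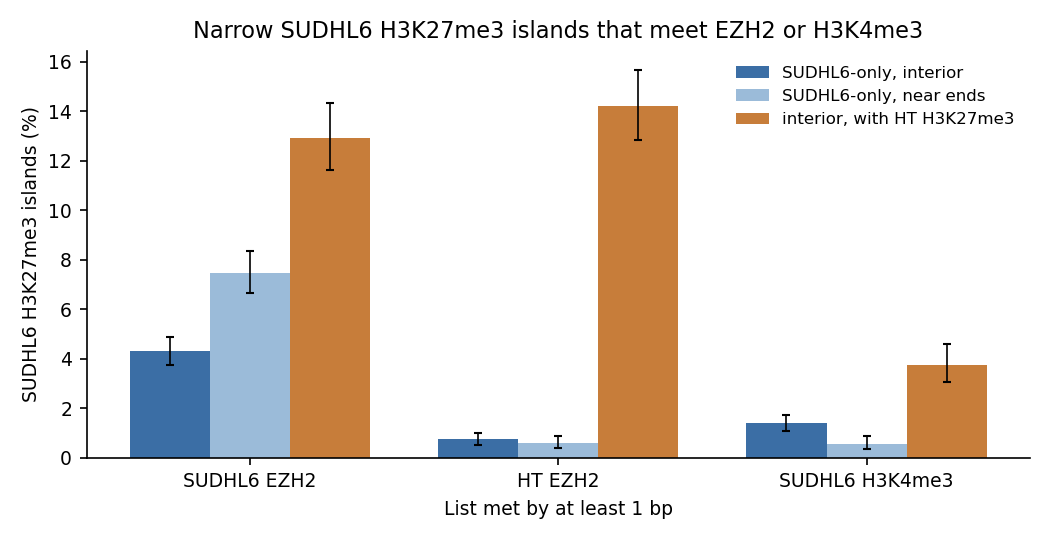
Percent of narrow SUDHL6 H3K27me3 islands that share at least 1 bp with SUDHL6 EZH2, HT EZH2 or SUDHL6 H3K4me3, for the SUDHL6-only islands inside the chromosomes, the same selection near chromosome ends, and interior islands that overlap HT H3K27me3. Error bars are exact 95% intervals for counting error; SUDHL6 EZH2 met 4.30%, 7.46% and 12.9% of the sets in this order.

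The order of the sets was the same within width classes from 1 kb up, with overlapping intervals for part of the range. Among islands of 5 to 10 kb, SUDHL6 EZH2 overlapped 7.60% (5.79 to 9.75%) of the SUDHL6-only islands, 13.1% (10.8 to 15.7%) of those near the ends and 19.0% (16.0 to 22.2%) of those shared with HT. From 1 to 2 kb the shares were 2.46% (1.75 to 3.37%), 5.29% (3.94 to 6.94%) and 10.3% (7.75 to 13.3%). In the class of 2 to 5 kb, which held most members, they were 4.72% (3.92 to 5.62%), 6.35% (5.30 to 7.53%) and 11.4% (9.63 to 13.3%), and the first interval overlapped the second. Under 1 kb only 8 of 335 SUDHL6-only islands and 3 of 71 shared islands had EZH2, and the intervals overlapped. Within the SUDHL6-only islands the share with EZH2 also went up with score per kb when islands were ranked within their width class, from 2.03% (1.33 to 2.96%) in the lowest 25% to 6.51% (5.22 to 8.01%) in the highest 25%.

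**Figure D2:**
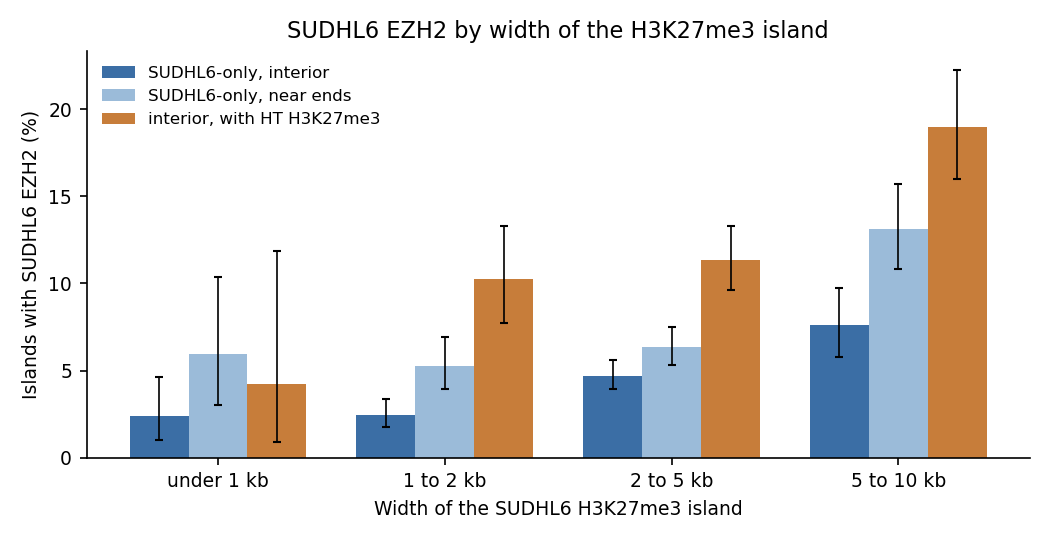
Percent of SUDHL6 H3K27me3 islands with SUDHL6 EZH2 by width of the H3K27me3 island, in the same 3 sets, with exact 95% intervals. The SUDHL6-only islands inside the chromosomes go from 2.39% under 1 kb to 7.60% at 5 to 10 kb and have the lowest bar in each width class.

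The 220 members with SUDHL6 EZH2 met 195 different EZH2 islands, 12.9% of the SUDHL6 EZH2 list. EZH2 covered a median of 72.0% of the member and the whole of it in 69 cases, and 4 members were covered by less than 10%. Of the 195 EZH2 islands, 37 also lay over a SUDHL6 H3K27me3 island outside the selection, and 15 (7.69%) overlapped an HT EZH2 island, against 19.4% of the whole SUDHL6 EZH2 list. Since HT H3K27me3 was kept out of the selection and 44.4% of the SUDHL6 EZH2 list overlapped it, the choice of members and a difference in EZH2 cannot be told apart in this share. The longest overlaps were 9450 bp each, over the whole of an island on chromosome 7 from 44257051 to 44266500 (score 298) and of another on chromosome 17 from 60337351 to 60346800 (score 214). An island on chromosome 7 from 100606351 to 100613700 (7.35 kb, score 286) was also covered in full. Chromosome 7 held 1 more of the 5 longest overlaps, 7950 bp of an island from 73874401 to 73883400 (score 182), and chromosome 1 the other, also 7950 bp, from 11583451 to 11591700 (score 165). None of the 5 islands had EZH2 in HT, which was at only 0.743% of all members. For the 3 that were covered in full, the nearest HT H3K27me3 lay at 31.95, 146.25 and 82.05 kb.

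HT EZH2 overlapped 38 of the SUDHL6-only islands, 0.743% (0.526 to 1.02%), against 4.42% of all SUDHL6 H3K27me3 islands and 14.2% (12.8 to 15.7%) of the interior islands shared with HT. The same selection near chromosome ends had a like share of 0.600% (0.381 to 0.899%). The contrast with the list is tied to the selection, because 48.9% of the HT EZH2 list overlapped HT H3K27me3. The share of members was 0.490% where no HT island could lie within 5 kb and 0.479% where 50% of an island had to be covered. EZH2 of both lines was at 9 members, a count not made for the whole list. The longest overlap, 4050 bp, covered the whole of an island on chromosome 19 from 48441301 to 48445350, which SUDHL6 H3K4me3 also covered in full and which lay 0.75 kb from an HT H3K4me3 island. The next was 3750 bp, or 92.6% of an island on chromosome 12 from 54612151 to 54616200, with no SUDHL6 EZH2 there and the nearest HT H3K27me3 at 3.6 kb.

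H3K4me3 of SUDHL6 overlapped 71 of the SUDHL6-only islands, 1.39% (1.09 to 1.75%), against 2.46% of all SUDHL6 H3K27me3 islands. The share was 0.574% (0.360 to 0.868%) in the same selection near chromosome ends and 3.77% (3.04 to 4.61%) in interior islands shared with HT. Members thus stood between the other 2 sets, and did so in each alternative setting. The rule barred HT H3K4me3, which 59.0% of the SUDHL6 H3K4me3 list overlapped, so many places with H3K4me3 in both lines were left out beforehand. Even so, 22 of the 71 H3K4me3 islands that members met (31.0%) overlapped HT H3K4me3 elsewhere along their length. The 71 members met these islands with a median coverage of 27.3% of the member, and 12 were covered by less than 10%. Where 50% of an island had to be covered to count, the shares were 0.530% of members and 0.524% of the whole list, so the difference from the list was gone. The 137 interior islands that the rule left out for HT H3K4me3 alone carried SUDHL6 H3K4me3 in 38.7% and SUDHL6 EZH2 in 16.1%.

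Islands with both marks over most of their length were therefore rare. The longest stretch, 6750 bp, lay on chromosome 17 from 36283201 to 36290100, where SUDHL6 H3K4me3 covered 97.8% and SUDHL6 EZH2 65.2% of an island of 6.90 kb. HT H3K4me3 ended 4.20 kb from it. On chromosome 2, H3K4me3 covered 83.3% of an island from 38837851 to 38841450 and all of an island of 2.25 kb from 170335501 to 170337750, both without EZH2. Counting all lists together, 4807 members (93.96%) carried neither EZH2 of either line nor SUDHL6 H3K4me3, against 86.4% of the whole list, 91.7% of the same selection near the ends and 76.9% of interior islands shared with HT. SUDHL6 EZH2 without the others was present at 204 members (3.99%, against 7.36% of the whole list), while 60 had only SUDHL6 H3K4me3 and 27 only HT EZH2. These contrasts with the whole list are tied to the selection as well. Both SUDHL6 EZH2 and SUDHL6 H3K4me3 were present at 9 members. The counts of 60, 27 and 9 were not made for the whole list, so they are not shown to be particular to members.

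Many members had HT H3K27me3 nearby, though fewer than in the whole list. The nearest HT island was at a median distance of 16.5 kb, and 1932 members (37.8%, interval 36.4 to 39.1%) had one within 10 kb. Over the whole list, which includes islands that overlap HT H3K27me3, the values were 9.30 kb and 50.9%, and for the same selection near chromosome ends 29.7 kb and 25.4%. In 32 cases the SUDHL6 and HT islands touched with no base between them and none shared, and a further 314 members had an HT island within 1 kb. On the other side of the rule, 44 interior islands were kept out by an overlap of 150 bp, the smallest that occurred, and 89 by an overlap of less than 10% of their width. Calling the members SUDHL6-only therefore describes islands and not neighbourhoods. Over 100 kb from any HT H3K27me3 lay 694 members up to 1 Mb away and 65 members farther than that.

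SUDHL6 EZH2 overlapped 7.64% (4.96 to 11.2%) of members within 1 kb of HT H3K27me3, leaving out those that touched it, 4.67% (3.68 to 5.82%) from 1 to 10 kb, 3.88% (3.14 to 4.72%) from 10 to 100 kb and 4.03% (2.70 to 5.78%) from 0.1 to 1 Mb. The first interval overlapped those for 1 to 10 kb and for 0.1 to 1 Mb, but not that for 10 to 100 kb. EZH2 was at 0 of the 32 touching members, which allows a share of up to 9.38% by the limit of 3 counts and 10.9% by the exact interval. It was also at 0 of the 65 members over 1 Mb away, which allows up to 4.62% and 5.52%. The score per kb was 20.2 within 1 kb and 17.9 over 1 Mb away, where the median width of 2400 bp was the same. Of the 65 most distant members, 22 lay on chromosome 8 and 21 on chromosome 2. The farthest, on chromosome 8, was 5.60 Mb from HT H3K27me3.

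**Figure D3:**
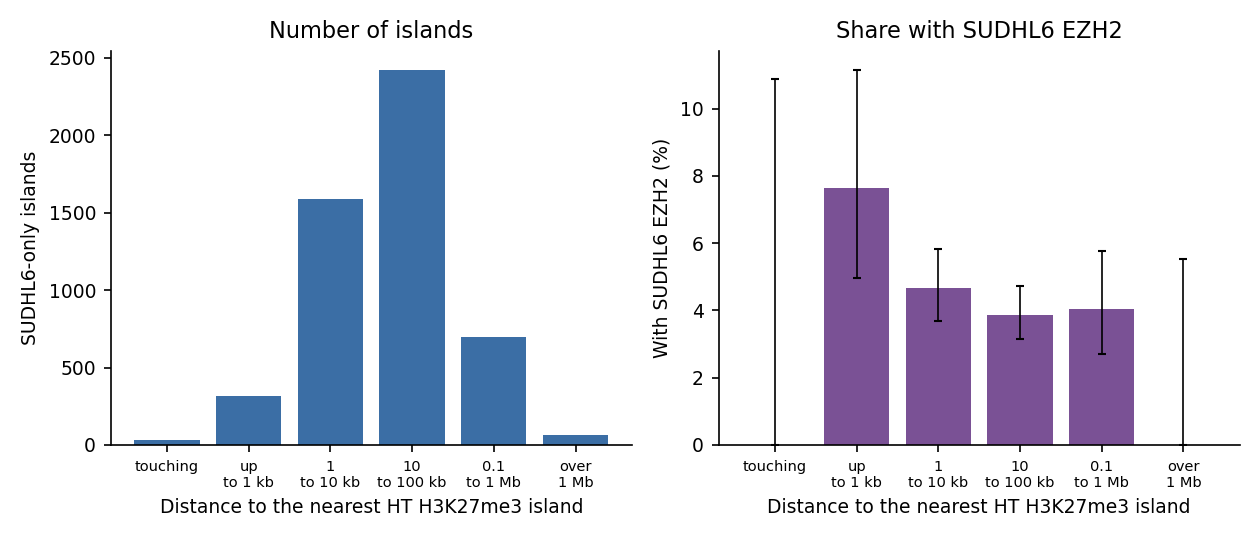
Left, number of SUDHL6-only islands by distance to the nearest HT H3K27me3 island; right, percent of them with SUDHL6 EZH2 and its exact 95% interval. Most islands lie 1 to 100 kb from HT H3K27me3 (1586 and 2425 islands), and the bars at both extremes of the right panel are 0.

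Within SUDHL6, the members often lay near other H3K27me3 islands. Another SUDHL6 H3K27me3 island was within 10 kb of 49.8% of members, 67.9% of the same selection near chromosome ends and 63.0% of interior islands shared with HT, against 60.8% of the whole list and 44.5% of the 137 islands left out for HT H3K4me3. A SUDHL6 EZH2 island was within 10 kb, overlaps included, of 10.1% of members, 17.5% near the ends and 19.8% of those shared with HT. With islands within 5 kb joined, the members' shares were 21.5% for H3K27me3 and 5.80% for EZH2. Joining removes H3K27me3 neighbours within 5 kb, so the first fall follows in part from the setting. The median distance of members to SUDHL6 H3K4me3 was 71.55 kb, and 10.5% of members had it within 10 kb, close to 72.15 kb and 12.2% for the whole list.

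The members were spread unevenly over the autosomes. Taking the length between the outer 10 Mb, assembly gaps included, they averaged 21.0 per 10 Mb, with 75.4 on chromosome 19, 73.6 on chromosome 22 and 55.1 on chromosome 17. Chromosome 4 had 0.877 per 10 Mb (15 islands), chromosome 21 had 3.56 (10 islands), chromosome 13 had 3.79 (36 islands) and chromosome 5 had 5.16 (83 islands). HT H3K27me3 islands inside the chromosomes averaged 57.4 per 10 Mb. They were many on chromosomes 22 (113.6) and 17 (108.1) and near the average on chromosome 19 (62.4). Of the chromosomes poor in members, they were below the average on chromosomes 4 (13.3), 21 (29.9) and 13 (36.6), and at 56.9 on chromosome 5. Members made up 64.0% of all SUDHL6 H3K27me3 islands inside the autosomes, from 45.4% on chromosome 5 to 79.0% on chromosome 2. The share of members with SUDHL6 EZH2 was highest on chromosome 19, at 9.15% (6.12 to 13.04%) of 295 islands. Its interval overlapped those of other chromosomes, such as chromosome 11 (4.44 to 9.18%). Chromosome 19 also had the most interior SUDHL6 EZH2 islands per 10 Mb (14.8). The share over all SUDHL6 H3K27me3 islands of each chromosome was not measured, so this is not shown to be particular to members.

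**Figure D4:**
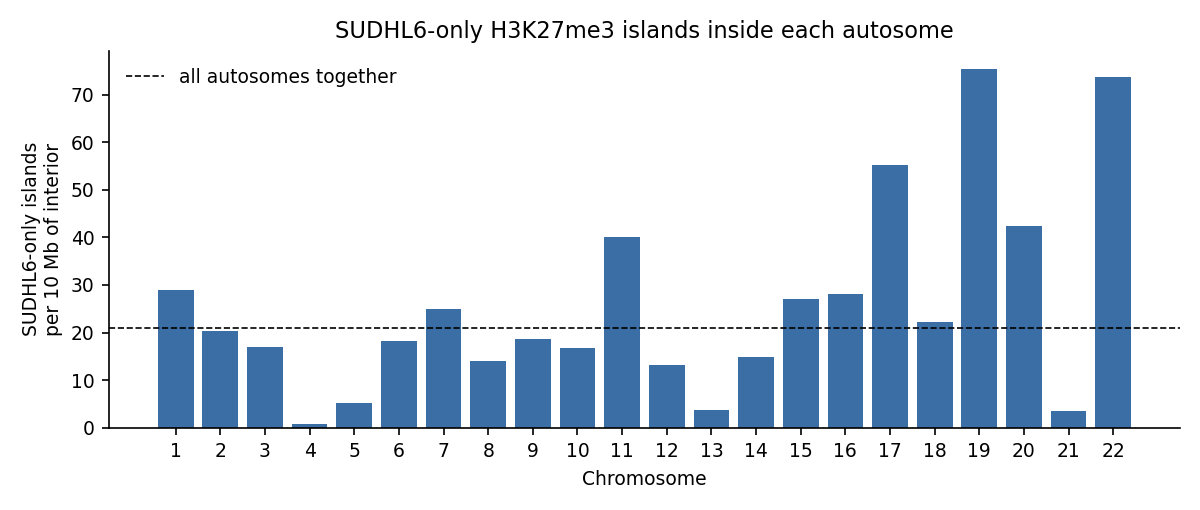
SUDHL6-only H3K27me3 islands per 10 Mb of interior length for each autosome, with the value over all autosomes (21.0) as a dashed line. Chromosomes 19 and 22 stand highest and chromosomes 4, 21, 13 and 5 lowest.

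On the scale of 10 Mb windows, a small number of segments held much of the set. The 215 windows that held any member had a median of 13, 65 windows held fewer than 5, and 32 windows held 50% of all members. The 10 fullest windows held 1103 members (21.6%). Of their interior SUDHL6 H3K27me3 islands, members made up 54.2% (chromosome 1, 30 to 40 Mb) to 92.6% (chromosome 2, 120 to 130 Mb). The second highest value was 72.2%, on chromosome 19 between 40 and 50 Mb, against 64.0% over all autosomes. How far the whole SUDHL6 list gathers in windows was not measured, so the gathering is not shown to be particular to members. The number of members per window went with the number of SUDHL6 EZH2 islands (Spearman rho 0.76), HT H3K27me3 islands (0.61), SUDHL6 H3K4me3 islands (0.54), HT H3K4me3 islands (0.53) and HT EZH2 islands (0.48). These values describe 215 windows of the same libraries, with depth and mappable sequence behind each count, and carry no test. Members could lie only over 10 Mb from the ends, whereas the other lists were counted over whole windows. Windows that reach into the outer 10 Mb therefore set unlike lengths side by side and can hold few members for that reason. Between 70 and 80 Mb of chromosome 17, for example, there were 4 members and 231 HT H3K27me3 islands.

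The fullest window lay between 60 and 70 Mb of chromosome 11, with 156 members over 505.95 kb, 157 HT H3K27me3 islands, and 153 SUDHL6 and 147 HT H3K4me3 islands. Between 10 and 20 Mb of chromosome 1 there were 132 members beside 199 HT H3K27me3 islands. By whole lists, SUDHL6 and HT had 237 and 157 H3K27me3 islands in the first of these windows and 197 and 199 in the second. Members are only part of the SUDHL6 list, so setting them against HT islands does not compare the lines. HT islands were also counted where a window reached into the outer 10 Mb. HT H3K27me3 islands outnumbered the members in 8 of the 10 fullest windows, so most of these segments held H3K27me3 in both lines. Of the other 2 windows, that between 10 and 20 Mb of chromosome 19 had 115 members and 74 HT H3K27me3 islands, with 167 and 157 H3K4me3 islands in SUDHL6 and HT.

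**Figure D5:**
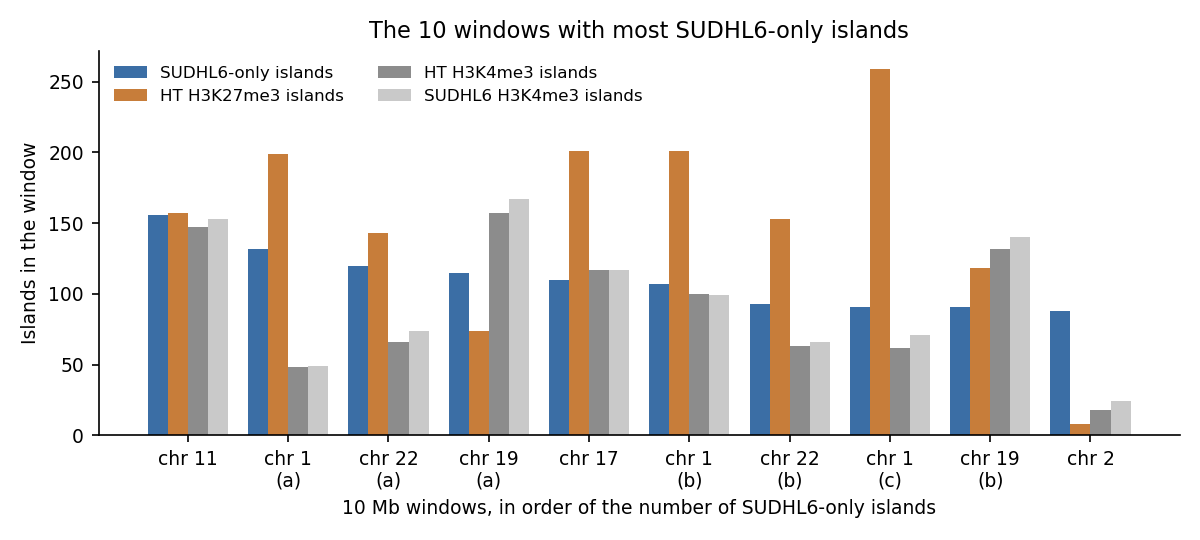
Number of SUDHL6-only islands, of HT H3K27me3 islands and of H3K4me3 islands of both lines in the 10 windows of 10 Mb with most SUDHL6-only islands, in that order; letters tell apart windows of the same chromosome. HT H3K27me3 islands are numerous in most of these windows (up to 259) and number 8 in the window of chromosome 2.

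Segments of chromosome 2 had the opposite makeup. Between 120 and 130 Mb, 88 of the 95 SUDHL6 H3K27me3 islands were members (92.6%), and SUDHL6 H3K27me3 covered 303.45 kb where HT had 8 islands over 16.2 kb. Between 10 and 20 Mb of this chromosome there were 47 members and 8 HT islands, and between 110 and 120 Mb 39 members and 11 HT islands. Over the whole lists, H3K4me3 covered less in HT (25.5 Mb) than in SUDHL6 (33.0 Mb). It also covered less in HT in these windows, at 29.7 against 47.7 kb, 22.8 against 56.7 kb and 42.45 against 108.6 kb. The same was seen between 70 and 80 Mb of chromosome 7, with 55 members, 26 HT H3K27me3 islands and H3K4me3 over 133.05 kb in HT against 357.3 kb in SUDHL6. Whether the lower coverage of H3K27me3 is separate from that of H3K4me3 was not tested. On chromosome 15 between 20 and 30 Mb, where H3K4me3 was nearly equal (114.45 kb in HT and 115.35 kb in SUDHL6), 22 members stood beside 4 HT H3K27me3 islands. Windows with at least 20 members, a limit chosen after the values were seen, numbered 83, and members outnumbered HT H3K27me3 islands in 11 of them. Members are part of the SUDHL6 list, so this count does not tell how often SUDHL6 had more H3K27me3 islands than HT.

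On a finer scale, 2489 members (48.7%) lay in 280 runs of at least 5 members with gaps of at most 100 kb, of a median 7 members. This share was 30.6% with gaps of at most 50 kb and 19.7% with islands within 5 kb joined. A smaller gap can only lower it, and joining merges close members, so both falls follow in part from the settings. It was not measured for the whole SUDHL6 list or the other sets, so lying in runs is not shown to be particular to members. The longest run held 36 members on chromosome 22 from 37250851 to 37986450. Over these 735.6 kb SUDHL6 H3K27me3 covered 253.95 kb (34.5%) and HT H3K27me3 132.0 kb (17.9%) in 31 islands, and 6 members had SUDHL6 EZH2. A run of 29 members on chromosome 3 from 12904501 to 13342950 had 33.7% of its length in SUDHL6 H3K27me3, 5.95% in HT H3K27me3, 6 SUDHL6 and 3 HT EZH2 islands, and no H3K4me3 in either line. A second run of 29, on chromosome 11 from 119340301 to 120169650, was looser, with 13.5% of its length in SUDHL6 H3K27me3 and 4.12% in HT.

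The next runs held 27 members each. On chromosome 1 from 227983801 to 228618000, members made up 27 of 29 SUDHL6 H3K27me3 islands, and HT had 6 islands over 19.95 kb; H3K4me3 islands lay between them in both lines, 8 in SUDHL6 and 6 in HT. On chromosome 11 from 61254001 to 61725750, 7 of the 27 members had SUDHL6 EZH2, the most of these 5 runs. In 28 runs, with 194 members, there was no HT H3K27me3 at all, though runs were built from members and are short, with a median of 191 kb over all 280. The first of these held 16 members on chromosome 8 from 47012101 to 47329950, where no H3K4me3 and no HT EZH2 was called. Another 2 held 12 members each on chromosome 2, from 128289001 to 128432700 and from 120982801 to 121178100, inside the window with 8 HT islands. A run of 11 members on chromosome 2 from 23727751 to 23883450 was likewise without HT H3K27me3.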

How the data were processed

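ChIP-seq of H3K27me3, EZH2 and H3K4me3 in HT and SUDHL6 was used, with 1 library each; 2 input samples were not used here. The submitters' processing notes name SICER, a caller of broad islands, and hg19. Per the file names, windows were 150 bp, gaps 450 bp and the FDR 1e-07. The authors deposited 1 island list per library with a score per island. The meaning of that score, the aligner, filters, control and depth are not given in the sources used here. Starts and ends fell on a 150 bp grid, and positions are given counted from 1.

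Overlap means at least 1 bp. Intervals are exact (Clopper-Pearson) at 95% and cover counting error only, and the limit for a count of 0 is 3 counts of the total. Members and settings were chosen with earlier results of these data known. Regions named are the 5 leading members by width, score, score per kb and overlap with each list, the 10 fullest windows and the 5 longest runs; other windows and the runs without HT H3K27me3 were picked after their values were seen. Other settings varied the overlap, the score, width and end limits, the distance to HT islands, joining, the window grid and the gap within runs. The overlap steps were tested on simulated islands. No gene position or sequence on hg19 was used here, so no gene is named and the lines' B cell identity was not checked. Python 3.11.15, numpy 2.4.6, pandas 2.3.3, scipy 1.17.1 and matplotlib 3.10.9 were used.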

Additional observations from a re-analysis of the deposited data

How the results depend on the processing

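Alternatives changed 1 choice at a time, which could change the members and what counts as meeting a mark together. Values of the main results that left the exact 95% interval of the value given (for the number of members, a factor of 1.5) are listed. Where 50% of an island had to be covered, both by HT islands and by the other marks, 5850 islands were members, the median width was 2700 bp, and the shares were 3.28% with SUDHL6 EZH2, 0.479% with HT EZH2, 0.530% with SUDHL6 H3K4me3, 44.3% with HT H3K27me3 within 10 kb and 55.5% in runs. Among the 50% of SUDHL6 H3K27me3 islands with the highest scores, 2017 were members, with a median width of 4350 bp, 6.30% with SUDHL6 EZH2, 40.3% with HT H3K27me3 within 10 kb, 25.98% in the 10 fullest windows and 33.1% in runs. With no HT island within 5 kb, values were 19.6 for score per kb, 3.62% for SUDHL6 EZH2, 0.490% for HT EZH2, 1.03% for SUDHL6 H3K4me3, 18.3% for HT H3K27me3 within 10 kb, 20.4% in the fullest windows and 34.3% in runs. With islands within 5 kb joined, they were 18.9 for score per kb, 2.96% for SUDHL6 EZH2, 31.5% for HT H3K27me3 within 10 kb, 19.2% in the fullest windows and 19.7% in runs. Members under 5 kb wide had a median width of 2250 bp, 3.75% with SUDHL6 EZH2 and 39.3% in runs. At over 5 Mb from the ends, 36.0% had HT H3K27me3 within 10 kb, 19.2% lay in the fullest windows and 52.2% in runs, and at over 20 Mb the last 2 were 25.9% and 46.5%. Moving the grid of windows by 5 Mb gave 19.8%, and gaps of at most 50 kb left 30.6% in runs. With islands joined, 21.5% of members instead of 49.8% had another SUDHL6 H3K27me3 island within 10 kb and 5.80% instead of 10.1% a SUDHL6 EZH2 island. Among the highest scores the first share was 64.2%. Joining removes every neighbour within 5 kb in the same list and merges close members. Barring HT islands within 5 kb removes near HT islands. The lower shares with neighbours in these settings, and in runs with joining or smaller gaps, therefore follow in part from the settings themselves. Depth, and how far replicate libraries of a line overlap, limit all values and are not known.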
